A study of Saccharomyces cerevisiae with 4 samples.

Results

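The genes described here are the 8 genes of lysine biosynthesis in Saccharomyces cerevisiae (LYS20, LYS21, LYS4, LYS12, LYS2, LYS5, LYS9 and LYS1) together with LYS14, the gene of the pathway's transcriptional activator. They were taken by systematic name, and all 9 were found among the 7127 features of the count files. All 9 also passed the filter on low counts, which left 6197 features to be tested. Messenger RNA was profiled in a tor1 deletion strain and in its wild-type parent, with 2 libraries per strain. Both strains were BY4741, an S288C-derived haploid of mating type MATa that carries his3-1, leu2-0, met15-0 and ura3-0. The deletion strain differs by a kanMX4 cassette in place of TOR1 (YJR066w), which encodes a kinase of TOR complex 1. Cultures were taken in logarithmic growth, with 4 h in each sample title, from a medium of yeast nitrogen base with ammonium sulfate, dextrose, histidine, leucine, methionine and uracil. Lysine is not among the listed supplements, and no lysine gene is among the listed mutations.

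Yeast and other fungi make lysine by the alpha-aminoadipate pathway, which starts from 2-oxoglutarate and acetyl-CoA and does not occur in animals. Its first steps, from homocitrate to 2-oxoadipate, run largely in mitochondria, and its later steps, from 2-aminoadipate through saccharopine to lysine, run in the cytosol. Lysine inhibits the homocitrate synthases, and the Lys14 protein activates the genes when the intermediate aminoadipate semialdehyde is present. Gcn4, the activator of general amino acid control, acts on many of the same genes. Comparing the strains shows how the pathway's mRNA differs between a tor1 deletion and its wild type in cells that have to make their own lysine.

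Depth ranged from 8060480 to 10244377 counts in the deletion libraries and from 9623963 to 14446057 in the wild-type libraries. No label states whether each library had its own culture, and the spread behind the p-values may thus be technical. TOR1 itself had 0 and 1 counts in deletion libraries 1 and 2, against 635 and 357 counts in wild-type libraries 1 and 2. Of all genes tested, 51.8% were called different between the strains at an adjusted p below 0.05 (24.9% lower and 26.9% higher in the deletion). In a bulk culture a smaller share of cells that express a gene and less of its mRNA per cell cannot be told apart.

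Each of the 9 genes is a single coding exon in the R64 assembly, and no other annotated gene overlaps any of them. Those on chromosome IV are LYS20 (YDL182W, chrIV:133437-134723, plus strand), LYS21 (YDL131W, chrIV:227393-228715, plus), LYS4 (YDR234W, chrIV:931129-933210, plus) and LYS14 (YDR034C, chrIV:509737-512109, minus). On chromosome IX lie LYS12 (YIL094C, chrIX:186517-187632, minus) and LYS1 (YIR034C, chrIX:419615-420736, minus). LYS2 (YBR115C) is at chrII:469748-473926, LYS5 (YGL154C) at chrVII:215278-216096 and LYS9 (YNR050C) at chrXIV:714048-715388, all on the minus strand.

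The 500 bases before each start codon were searched for the core of the element bound by Lys14, TCCNNNGGA, which reads the same on both strands, and for the Gcn4 element, TGACTCA, on both strands. A match to the Lys14 element stood upstream of 5 of the 9 genes (LYS21, LYS12, LYS9, LYS1 and LYS14), and 5.9% of 6000 such windows before nuclear protein-coding genes held one. The Gcn4 element stood upstream of 3 of the 9 (LYS2, LYS1 and LYS14), against 4.0% of the same windows. No window held overlapping matches. The windows of LYS12, LYS2, LYS5 and LYS1 reach into the neighbouring gene, whose end or start lies 357, 465, 176 and 289 bases away. The choice of genes did not use the sequence, but Lys14 and Gcn4 are known activators of lysine genes. A share of matches above that of all windows is therefore no independent result. The matches are printed below as a description. Each is 30 bases from R64, 5′ to 3′ on the strand of the gene, with the matched letters in capitals and the distance from the first matched base to the start codon given in bases.
LYS21, Lys14 element, chrIV:227053-227082, plus strand, 330 bases: gagttgaaatTCCGCTGGAaatcgtcacca
LYS12, Lys14 element, chrIX:187795-187824, minus strand, 182 bases: ttcactttttTCCCGTGGAaaaatattctt
LYS9, Lys14 element, chrXIV:715594-715623, minus strand, 225 bases: gaatcgaaatTCCGTTGGAaaaattcgctt
LYS9, Lys14 element, chrXIV:715532-715561, minus strand, 163 bases: attgagaattTCCAATGGAattatcagcaa
LYS1, Lys14 element, chrIX:420913-420942, minus strand, 196 bases: atttttttttTCCAGCGGAatttggaattc
LYS14, Lys14 element, chrIV:512306-512335, minus strand, 216 bases: tggaaaaattTCCTCAGGAatttcaaaatc
LYS1, Gcn4 element, chrIX:420968-420997, minus strand, 250 bases: tactaagtcgaTGAGTCAaaaaagactctt
LYS14, Gcn4 element, chrIV:512341-512370, minus strand, 250 bases: aggacgcgacgTGACTCAattggaagaaat
LYS2, Gcn4 element, chrII:474102-474131, minus strand, 194 bases: tttttcgcgtgTGACTCAatgtcgaaatac
LYS1 and LYS14 are the only 2 of the 9 genes with a match to each element in the window, and LYS9 is the only one with 2 matches to the Lys14 element. LYS20, LYS4 and LYS5 had no match to either set of letters in this window.

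**Figure D1:**
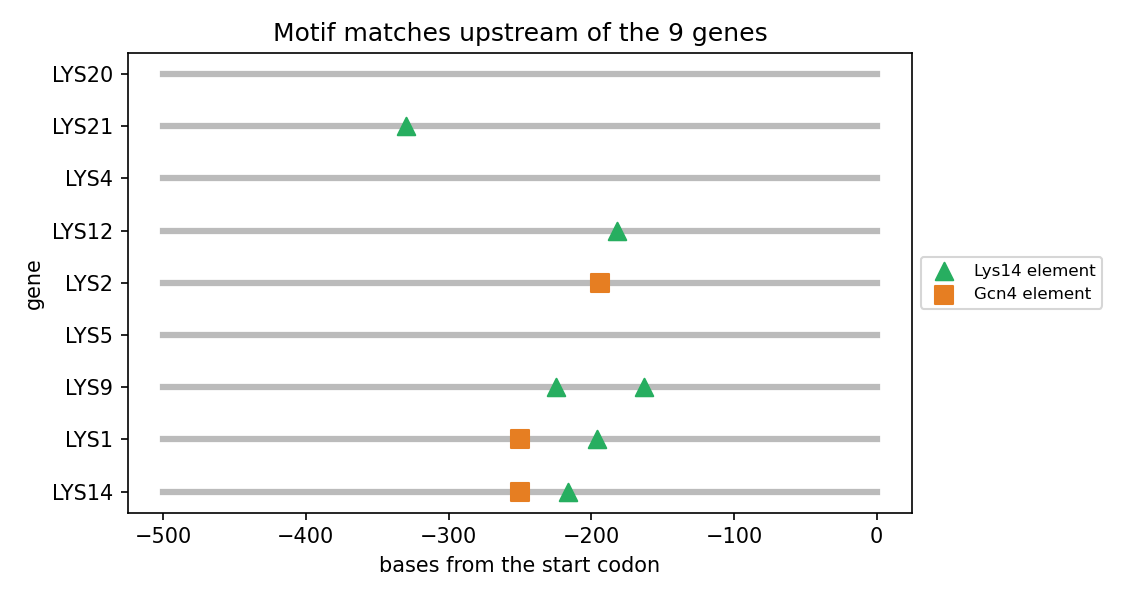
Positions of motif matches in the 500 bases before the start codon of each of the 9 genes (grey lines), as bases from the start codon, with triangles for the Lys14 element and squares for the Gcn4 element. The matches lie between 330 and 163 bases before the start codon.

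LYS21, of the first step of the pathway, and LYS4, of the next, were lower in the tor1 deletion than in the wild type, and no other gene of the 9 passed the test. The call of LYS21 was close to the threshold and ended with another scaling (RLE factors, edgeR adjusted p = 0.0506). It also ended when the counts of LYS20 and LYS21 were summed (edgeR adjusted p = 0.138). Of the 9 genes, 2 passed the test as lower (LYS21 and LYS4), 0 passed as higher and 7 did not pass (quasi-likelihood test of edgeR, with p adjusted by Benjamini-Hochberg over 6197 genes and a threshold of 0.05). That share is not above the 24.9% of all genes called lower, and the same 2 genes were the only ones of the 9 with an unadjusted p under 0.05. The median log2 fold change of the 9, deletion over wild type, was -0.49, against -0.02 over all genes tested, and the values ran from -0.77 to 0.06. In 6 of the 9 both deletion libraries lay below both wild-type libraries, as they did for 40.2% of all genes. In the other 3 the strains overlapped, whereas 78.9% of all genes did not overlap in either direction. Together the 9 genes took 0.285% of all counts in deletion library 1 (exact 95% binomial interval 0.281% to 0.289%) and 0.192% in deletion library 2 (0.189% to 0.195%), against 0.406% (0.402% to 0.409%) and 0.461% (0.457% to 0.465%) in wild-type libraries 1 and 2. These shares of raw counts did not overlap between the strains, and the intervals cover counting error only. The shares use library totals without the scaling factors of the test, and library totals alone put the median of all genes at -0.35. The gap between the shares thus includes a shift seen over all genes. Scaled with those factors (CPM, defined below), the 8 enzyme genes summed to 3133 and 1967 in deletion libraries 1 and 2. Wild-type libraries 1 and 2 had 3439 and 4035 CPM.

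The number of calls changed with the scaling and when single libraries were left out. With 1 library of a strain left out, the lone library is assumed to vary like the other strain's pair, and over all genes the median absolute log2 ratio within a pair was 0.33 in the deletion and 0.13 in the wild type. Without deletion library 1, 6 of the 9 genes and 2179 of all genes were called lower. Without wild-type library 1 or 2, 0 of the 9 were, and 915 and 939 of all genes. These fits therefore differ in which pair gives the spread, so their counts of calls cannot be compared directly. With library totals alone 6 of the 9 and 2328 of all genes were called lower, and with upper quartile factors 6 of the 9 and 2508 of all genes. These scalings moved the median of all genes to -0.35 and -0.41. Relative to that shift the members' median moved little, at -0.82 after the first scaling and -0.88 after the second.

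Homocitrate synthase, the enzyme of the committed step that lysine inhibits, is encoded by LYS20 and LYS21. Levels are given as CPM, counts scaled by library total and TMM factor. LYS20 had CPM of 871 and 380 in deletion libraries 1 and 2, and 796 and 1127 in wild-type libraries 1 and 2. The strains overlapped, since deletion library 1 exceeded wild-type library 1, and the log2 fold change of -0.62 ± 0.39 (SE, 95% interval -1.55 to 0.31) did not pass (edgeR adjusted p = 0.22). It was at -1.33 without deletion library 1 and at -0.14 without deletion library 2. LYS21 had 514 and 336 CPM in the deletion and 625 and 813 CPM in the wild type. Both deletion libraries were lower, and LYS21 fell by 0.76 on the log2 scale (SE 0.26, edgeR adjusted p = 0.047), close to the threshold of 0.05. Its change was -0.93 and -0.55 without wild-type library 1 or 2, and -1.09 and -0.48 without deletion library 1 or 2.

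The coding sequences of the synthase genes matched at 95.3% identity over 1161 bases, which is 90.2% of the shorter, LYS20, with a stretch of 278 bases without any difference. Reads could therefore be divided wrongly between them or left uncounted, and their separate values are uncertain. With both genes counted as 1 feature, an alternative chosen after seeing the data, the sum was 1385 and 716 CPM in the deletion and 1420 and 1940 CPM in the wild type. Both deletion libraries were then below both wild-type libraries, but the change of -0.68 ± 0.34 did not pass (edgeR adjusted p = 0.138), so the call of LYS21 ended. Without deletion library 1 the summed feature was at -1.22 and without deletion library 2 at -0.28, so its size depended on which deletion library was used.

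Per kilobase of coding length, LYS20 made up 63.5% and 53.8% of the summed synthase level in deletion libraries 1 and 2, against 56.7% and 58.8% in wild-type libraries 1 and 2. The deletion libraries thus lay on either side of the wild-type pair. The mean share was 58.7% ± 6.88 in the deletion and 57.7% ± 1.45 in the wild type (SD, n = 2 each), a difference of 0.949 percentage points (exact permutation test over libraries, two-sided, p = 1). With 2 libraries against 2 this test cannot give a p below 0.333.

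LYS4 encodes homoaconitase and LYS12 homoisocitrate dehydrogenase, the mitochondrial enzymes that carry homocitrate on to 2-oxoadipate. LYS4 had 130 and 89.2 CPM in deletion libraries 1 and 2, against 184 and 190 CPM in wild-type libraries 1 and 2. It fell by 0.77 on the log2 scale (SE 0.22, edgeR adjusted p = 0.0212), to 0.585 of its wild-type level. This was the lowest adjusted p of the 9 genes, and it was 0.0874 and 0.111 when wild-type library 1 or 2 was left out, with changes of -0.79 and -0.75. LYS12 had 388 and 270 CPM in the deletion and 440 and 483 CPM in the wild type. The deletion libraries were both lower, at a log2 fold change of -0.49 ± 0.22 that did not pass (95% interval -1.02 to 0.04, edgeR adjusted p = 0.106). LYS12 was at -0.76 without deletion library 1 and -0.25 without deletion library 2. It was called lower after scaling by totals alone (-0.82) or by the upper quartile (-0.88), where the median of all genes was -0.35 and -0.41.

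LYS2 encodes the aminoadipate reductase, a large enzyme that works only after Lys5, a phosphopantetheinyl transferase, has attached its cofactor. LYS2 counted 217 and 186 CPM in deletion libraries 1 and 2, against 264 and 246 CPM in wild-type libraries 1 and 2, with a log2 fold change of -0.34 ± 0.17 (edgeR adjusted p = 0.14). LYS5 was closer still between the strains, with 251 and 272 CPM in the deletion and 282 and 298 CPM in the wild type (-0.15 ± 0.17, 95% interval -0.55 to 0.25, edgeR adjusted p = 0.486). In both genes the deletion libraries lay below the wild-type libraries without passing the test. LYS5 was the only one of the 9 with a higher level in deletion library 2 than in deletion library 1. LYS2 was at -0.44 without deletion library 1 and -0.23 without deletion library 2. LYS2 and LYS5 were both called lower after scaling by totals alone (-0.67 and -0.47) or by the upper quartile (-0.73 and -0.54). The median of all genes was then -0.35 and -0.41, so these values include a shift seen over all genes.

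LYS9 and LYS1 encode the saccharopine dehydrogenases that form saccharopine and split it to lysine. LYS9 had 215 and 159 CPM in deletion libraries 1 and 2, and 185 and 206 CPM in wild-type libraries 1 and 2, so that the strains overlapped (-0.07 ± 0.20, 95% interval -0.54 to 0.41, edgeR adjusted p = 0.796). LYS1, the last step, had 548 and 274 CPM in the deletion against 663 and 673 CPM in the wild type. The wild-type libraries of LYS1 were nearly equal and the deletion libraries were far apart, which gave -0.70 ± 0.32 (95% interval -1.46 to 0.05) and an edgeR adjusted p of 0.104. LYS1 was at -1.28 without deletion library 1 and at -0.28 without deletion library 2. DESeq2 called LYS1 lower too (adjusted p = 0.0444), as did the tests after scaling by upper quartile (-1.09) or by library totals (-1.04). Upper quartile factors and library totals put the median of all genes at -0.41 and -0.35.

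LYS14, the zinc-cluster activator of these genes, had 167 and 116 CPM in deletion libraries 1 and 2, against 134 and 137 CPM in wild-type libraries 1 and 2. The deletion libraries lay on either side of the wild-type pair. Its log2 fold change was 0.06 ± 0.21 (95% interval -0.44 to 0.56, edgeR adjusted p = 0.831), and it took negative values with library totals (-0.28) and upper quartile factors (-0.34), without passing. The 5 genes with a Lys14 element match were at -0.76 (LYS21), -0.49 (LYS12), -0.07 (LYS9), -0.70 (LYS1) and 0.06 (LYS14). The 4 without one were at -0.62 (LYS20), -0.77 (LYS4), -0.34 (LYS2) and -0.15 (LYS5), so that the ranges of both sets overlapped.

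**Figure D2:**
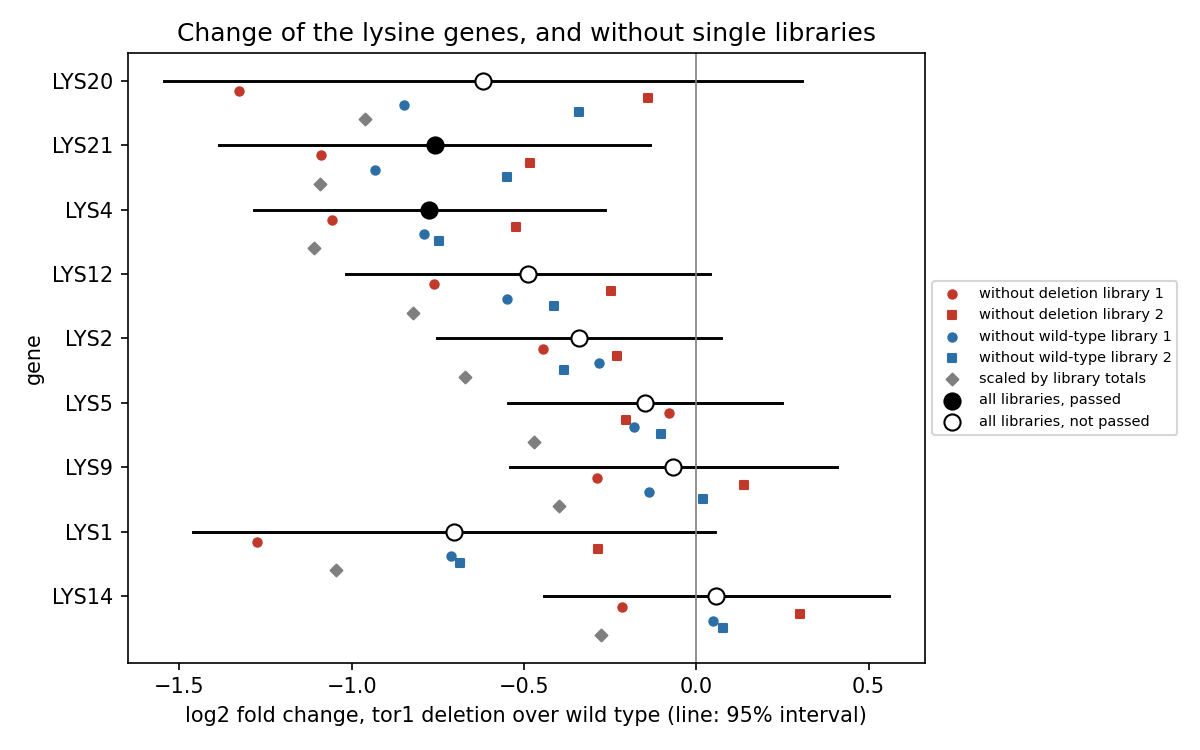
Log2 fold change of the tor1 deletion over the wild type for each gene (large circles, filled where the edgeR test passed, with 95% intervals), and below each the value without single libraries and with library totals (small markers). LYS21 and LYS4 are filled, and the values without deletion library 1 and without deletion library 2 differ most for LYS20 and LYS1.

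The deletion libraries differed from each other more than the wild-type libraries did. The log2 ratio of deletion library 1 over library 2 was 1.20 for LYS20, 1.00 for LYS1, 0.61 for LYS21, 0.54 for LYS4 and 0.52 for LYS12 and for LYS14, and -0.12 for LYS5. Over all genes tested the median size of this ratio was 0.33, and that between the wild-type libraries was 0.13. Deletion library 1 was the higher one for 8 of the 9 lysine genes and for 51.2% of all genes. The same ordering held for all 10 arginine synthesis genes and all 12 aromatic amino acid synthesis genes listed, with median log2 ratios of 0.87 and 0.48, against 0.52 for the 9 lysine genes. What separates the deletion libraries was not tested.

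Levels of different genes were compared per kilobase of coding length. In the deletion, the order by mean CPM per kilobase was LYS20 (486 ± 270, SD, n = 2), LYS1 (366 ± 172), LYS21 (321 ± 95.3), LYS5 (320 ± 18.4), LYS12 (295 ± 74.6), LYS9 (139 ± 29.4), LYS14 (59.5 ± 15.2), LYS4 (52.6 ± 13.8) and LYS2 (48.2 ± 5.25). Neighbours in that order overlapped between libraries except LYS12 with LYS9 and LYS9 with LYS14. In the wild type the order was LYS20 (747 ± 182), LYS1 (595 ± 6.42), LYS21 (543 ± 101), LYS12 (414 ± 26.8), LYS5 (354 ± 13.4), LYS9 (146, with libraries at 138 and 154), LYS4 (89.9 ± 1.85), LYS2 (61.0 ± 3.12) and LYS14 (57.2 ± 0.704). There the only neighbours with overlapping ranges were LYS1 and LYS21. Both strains thus had LYS20, LYS1 and LYS21 at the top by mean, and LYS4, LYS2 and LYS14 at the bottom. The places of LYS20 and LYS21 are uncertain, since reads that fit both genes may be misassigned or uncounted. In deletion library 2 alone, however, LYS5 was highest at 333, above LYS20 (296), LYS21 (254) and LYS1 (244). Between the highest and the lowest of the 8 enzyme genes the ratio per kilobase was 13.0 and 7.77 in deletion libraries 1 and 2, against 9.78 and 14.9 in wild-type libraries 1 and 2. Summed over the 8 enzyme genes, the level per kilobase was 2482 and 1574 CPM in deletion libraries 1 and 2, and 2710 and 3190 CPM in wild-type libraries 1 and 2. LYS14 mRNA came to 2.83% and 3.10% of that sum in the deletion and to 2.09% and 1.81% in the wild type, with no overlap. LYS14 itself overlapped, at 70.3 and 48.8 CPM per kilobase in the deletion and 56.7 and 57.7 in the wild type. In deletion library 1 the larger share went with both a higher LYS14 level and a lower enzyme sum than in the wild type. In deletion library 2 it went with the lower enzyme sum alone. Taken as single genes, 78.9% of all genes did not overlap between the strains either.

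**Figure D3:**
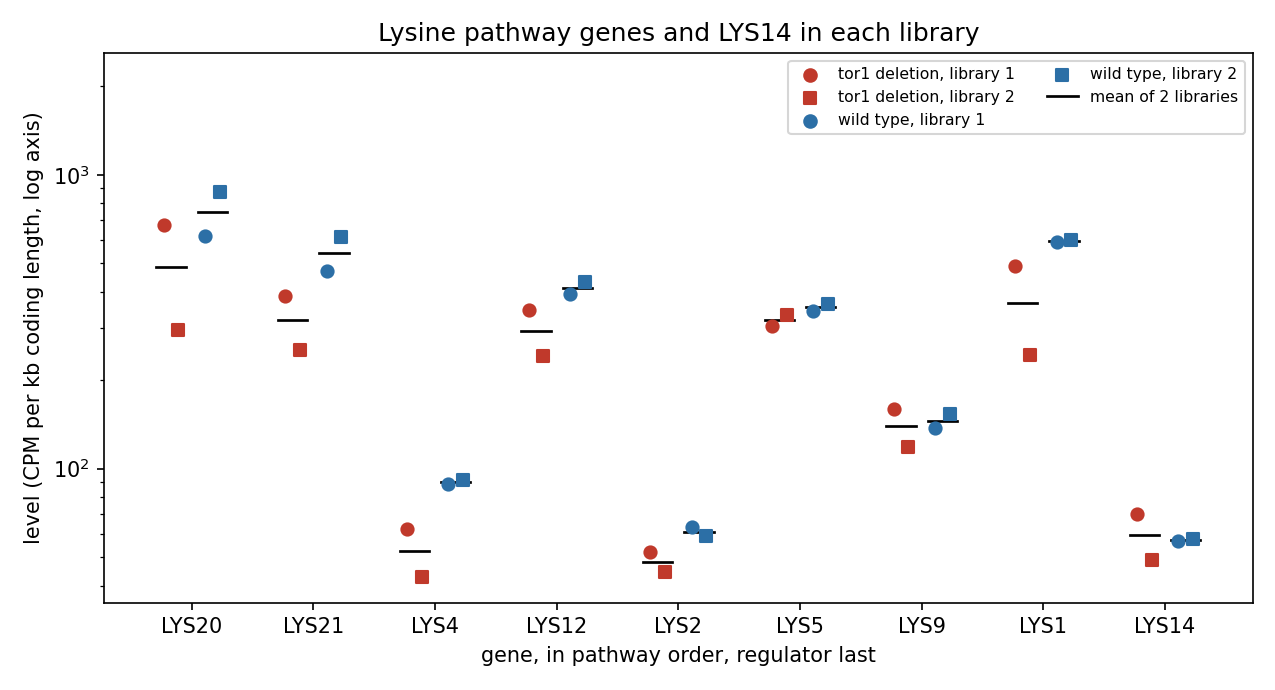
CPM per kilobase of coding length (log axis) for each of the 9 genes in each library, with the tor1 deletion left and the wild type right of each gene, circles for library 1, squares for library 2 and bars for the mean of 2 libraries. The deletion libraries of LYS20 and LYS1 are far apart, while the LYS5 and LYS9 values of the strains lie close together.

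Of 11 genes listed here that feed the pathway or share its steps, 3 passed as lower, 3 passed as higher and 5 did not pass, where 51.8% of all genes were called. ACO1, the main aconitase of the citric acid cycle, did not pass, at 0.06 ± 0.20 (and at -0.26 after scaling by totals alone and -0.34 by the upper quartile).

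The mitochondrial carriers for 2-oxoadipate and 2-oxoglutarate, ODC1 and ODC2, moved in opposite directions. ODC1 had 160 and 208 CPM in the deletion libraries and 43.4 and 47.0 CPM in the wild-type libraries, and it rose by 2.03 ± 0.20 (edgeR adjusted p = 0.000399). ODC2, with 220 and 146 CPM in the deletion against 468 and 469 CPM in the wild type, fell by 1.36 on the log2 scale (SE 0.23, edgeR adjusted p = 0.00316). No gene of the lists used here other than LYS20 and LYS21 has a copy of at least 90% identity over at least 50% of the shorter sequence.

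Of the aminotransferases that turn 2-oxoadipate into 2-aminoadipate, ARO8 did not pass, at -0.17 ± 0.21. ARO9, an aromatic aminotransferase as well, fell by 0.89 on the log2 scale (SE 0.17, edgeR adjusted p = 0.00449). Its call ended without wild-type library 1, where the change was -0.85. Citrate synthase and isocitrate dehydrogenase supply 2-oxoglutarate, the starting material. CIT1, the mitochondrial citrate synthase, rose by 2.14 ± 0.19 (edgeR adjusted p = 0.000273), with 689 and 770 CPM in the deletion against 160 and 171 CPM in the wild type. CIT2, the peroxisomal isoform, rose by 1.22 ± 0.23 (edgeR adjusted p = 0.00507). Its call ended without wild-type library 1 or 2, although the change stayed at 1.22 and 1.23. The NAD-dependent isocitrate dehydrogenase subunits IDH1 (0.27 ± 0.18) and IDH2 (0.39 ± 0.16) did not pass. IDP1, the mitochondrial NADP-dependent enzyme, fell by 0.60 (SE 0.18, edgeR adjusted p = 0.0282), and the cytosolic IDP2 was at 1.13 ± 0.40 and just missed the threshold (edgeR adjusted p = 0.0508, called higher with DESeq2 at adjusted p = 0.00681). IDP2 had 28.4 and 73.3 CPM in deletion libraries 1 and 2, and its change was 1.67 without deletion library 1 and 0.29 without deletion library 2. The call of IDP1 ended without wild-type library 1 or 2, with changes of -0.67 and -0.51. In fits with 1 wild-type library the deletion pair alone gives the spread between libraries.

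Among 6 genes of lysine uptake, storage and use, 1 passed as higher, 1 as lower and 4 did not pass, where 51.8% of all genes were called. Those that passed were the lysyl-tRNA synthetase genes, whose products charge tRNA with lysine. KRS1, the cytosolic synthetase, had 408 and 299 CPM in deletion libraries 1 and 2, against 669 and 738 CPM in wild-type libraries 1 and 2, and fell by 0.99 (SE 0.22, edgeR adjusted p = 0.00872). MSK1, its mitochondrial counterpart, averaged 93.7 ± 0.491 CPM in the deletion and 47.1 ± 1.59 CPM in the wild type (SD, n = 2 each), and rose by 0.99 ± 0.16 (edgeR adjusted p = 0.00266). The synthetases thus changed by similar sizes in opposite directions. The call of KRS1 ended without wild-type library 2, with a change of -0.91, and that of MSK1 without wild-type library 1, with 0.96. There too the deletion pair alone gave the spread.

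LYP1, the lysine permease, had 300 and 504 CPM in the deletion, both above the 248 and 238 CPM of the wild type, but just missed the threshold at 0.72 ± 0.26 (edgeR adjusted p = 0.0527). It was called higher with DESeq2 (adjusted p = 0.0173), the likelihood ratio test, no filter and the replicate block, and it was at 1.06 without deletion library 1 and 0.30 without deletion library 2. With library totals and upper quartile factors the change was smaller, at 0.41 and 0.33, and did not pass. GAP1, the general amino acid permease, was at 0.69 ± 0.36 with overlapping strains. CAN1, the arginine permease that also carries lysine, was at 0.06 ± 0.20, and YPQ1, a vacuolar transporter of lysine and arginine, at -0.19 ± 0.28, and neither passed.

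None of the 6 regulators listed beside LYS14 passed the edgeR test, where 51.8% of all genes were called. GCN4 had 962 and 1161 CPM in the deletion libraries, both above the 702 and 820 CPM of the wild-type libraries, at 0.48 ± 0.21 (edgeR adjusted p = 0.0956). Library totals and upper quartile factors brought the GCN4 change down to 0.16 and 0.085, without passing. Gcn4 is controlled largely at translation, so its mRNA is only part of its regulation. GCN2, the kinase upstream of GCN4 translation, was at -0.58 ± 0.22 (edgeR adjusted p = 0.065). It was called lower with the likelihood ratio test (adjusted p = 0.0437), the replicate block (0.0391), library totals (0.0108) and upper quartile factors (0.00959). With library totals and upper quartile factors the median of all genes was -0.35 and -0.41. MKS1, also known as LYS80, a negative regulator of the retrograde pathway whose loss is known to raise lysine enzyme levels, was at -0.12 ± 0.20. RTG1, RTG2 and RTG3, which activate CIT2 and the early citric acid cycle genes in that pathway, were at -0.16 ± 0.29, 0.26 ± 0.17 and 0.26 ± 0.17.

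**Figure D4:**
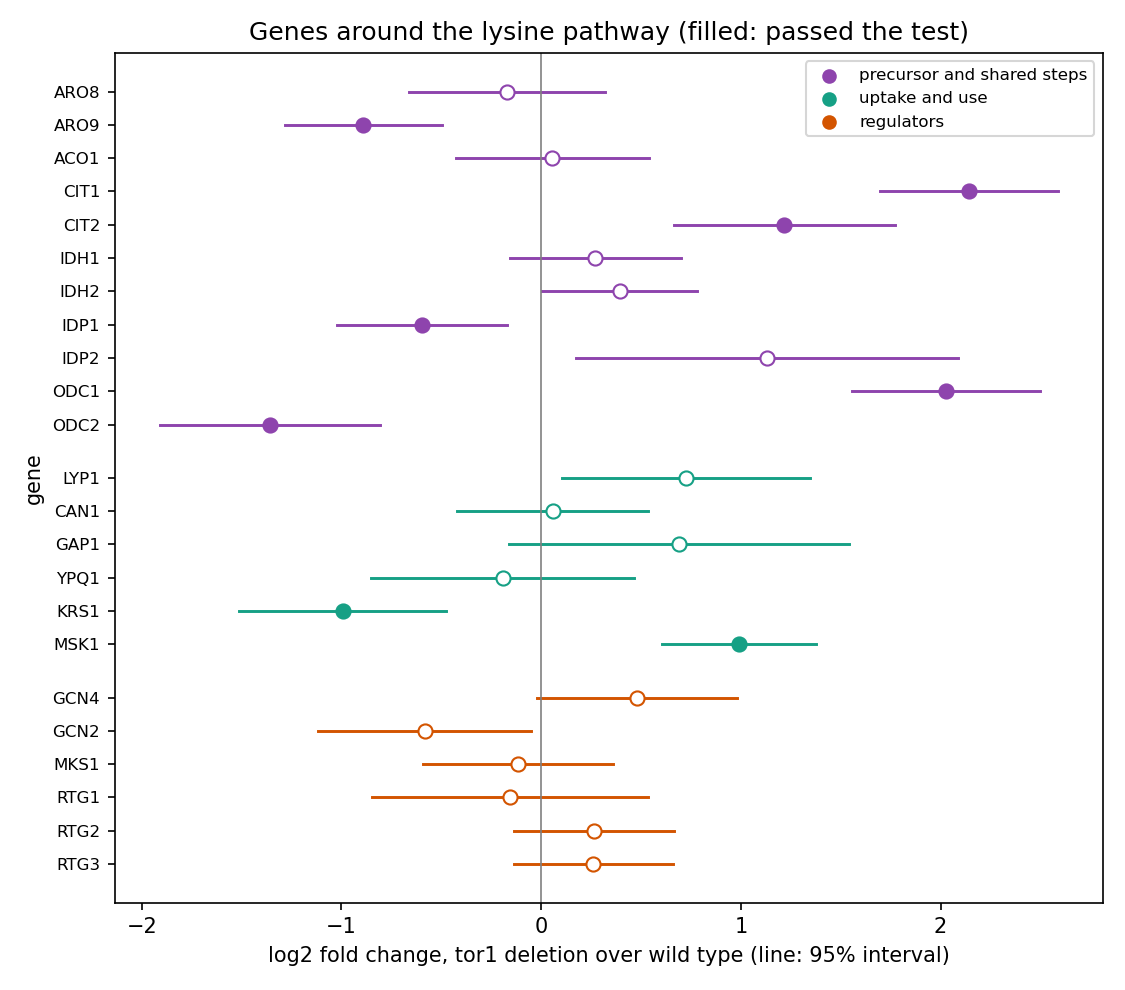
Log2 fold change of the tor1 deletion over the wild type with 95% intervals for genes of precursor supply and shared steps, of uptake and use, and of regulation, filled where the edgeR test passed. CIT1 and ODC1 are highest at 2.14 and 2.03, ODC2 is lowest at -1.36, and no regulator is filled.

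Arginine and aromatic amino acids, like lysine, were not in the listed supplements. Of 10 arginine synthesis genes 6 passed as lower and 0 as higher, with a median log2 fold change of -0.98. Of 12 aromatic amino acid genes 6 passed as lower and 1 as higher, with a median of -0.72. Over all genes, 24.9% were called lower and 26.9% higher. The gene that rose was TRP1, of tryptophan synthesis, at 0.81 ± 0.17 (edgeR adjusted p = 0.00684). The 8 lysine enzyme genes had 2 lower, 0 higher and a median of -0.55, and the difference between these lists was not tested.

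The genes most like the lysine genes over the 4 libraries were named by the smallest root-mean-square distance between centred log2 CPM profiles, among 4966 genes of sufficient abundance. Nearest to LYS14 were YJR056C (0.009), GPM1, encoding phosphoglycerate mutase (0.010), MHF2 (0.019), PRE6, a proteasome core subunit gene (0.021), and POP6, an RNase P and MRP subunit gene (0.024). Nearest to the mean profile of the 8 enzyme genes were YKL069W (0.014), LOC1 (0.015), AAT2, the cytosolic aspartate aminotransferase gene (0.037), URM1 (0.043) and GCN1, encoding an activator of Gcn2 (0.044). Among the enzyme genes themselves, LYS12 lay nearest to their mean profile (0.014) and LYS5 farthest (0.302). With 4 libraries such distances only describe the profiles.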

How the data were processed

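Poly(A) RNA libraries of 2 tor1 deletion and 2 wild-type samples were prepared for Ion Torrent sequencing, per the labels' protocols. Whole-number counts, not normalized, were deposited by the authors for each gene, and the submitters' processing notes name FastQC, Subread, featureCounts and build sacCer3. The sources used here give neither alignment nor strand settings, so antisense reads may be included. A second table deposited by the authors, on a log10 scale for 6519 genes, equals log10 of the count over a constant per library plus 1, and it entered as an alternative. The counts were fitted with edgeR 4.0.16 (R 4.3.3), with filterByExpr, TMM factors, the quasi-likelihood F test and group as the only term, and the code was tested on simulated data. SE is the absolute log2 fold change over the square root of F. Positions and sequences came from RefSeq R64, the assembly of sacCer3, and blastn 2.17.0 searched for near copies. The binomial intervals of count shares cover counting error only, and they may be too narrow, since no molecular identifiers mark independent molecules. Intervals of log2 fold changes were computed from the SE and so include the spread between libraries. Alternatives were DESeq2 1.42.0, limma 3.58.1 (voom, and the log10 table), a likelihood ratio test, other scalings, filters and thresholds, a replicate block and each library left out. Genes named were the 9 members, the 3 lists around the pathway, genes going against their list, and the 5 nearest profiles. The members and lists were chosen with earlier results of these data known. A further gene of precursor supply is not reported here.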

Additional observations from a re-analysis of the deposited data

How the results depend on the processing

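Beside the 2 lysine genes called lower, there was 1 with RLE factors (LYS4), 6 with upper quartile factors or library totals, 4 with the replicate block and 0 at an adjusted p below 0.01. The number also changed when a library was left out. Those fits differ in which pair gives the spread, so their counts cannot be compared directly. No alternative called any of the 9 higher. Over all genes, the calls ranged from 1045 to 2281 higher and from 915 to 2179 lower without single libraries, with 2508 lower for upper quartile factors, 2328 for library totals and 860 at an adjusted p below 0.01. With DESeq2, 3 lysine genes were lower. The replicate numbers pair nothing that the labels name, and same-numbered libraries did not deviate together (correlation -0.07). With the number as a replicate block, LYS20 (adjusted p = 0.0453) and LYS1 (adjusted p = 0.0157) joined the calls. Values of genes that did not pass changed sign as follows, and no value of the changed sign passed. With upper quartile factors and library totals LYS14 was at -0.34 and -0.28, ACO1 at -0.34 and -0.26, IDH1 at -0.12 and -0.057, CAN1 at -0.34 and -0.26, RTG2 at -0.13 and -0.060, and RTG3 at -0.13 and -0.061, and with upper quartile factors IDH2 at -0.0021. These scalings put the median of all genes at -0.41 and -0.35, against -0.02 in the main fit. Without single libraries LYS9 ranged from -0.29 to 0.14, LYS14 from -0.22 to 0.30, ACO1 from -0.20 to 0.28, CAN1 from -0.15 to 0.25, GAP1 from -0.0042 to 1.16, YPQ1 from -0.68 to 0.18, MKS1 from -0.34 to 0.084 and RTG1 from -0.62 to 0.22. GAP1 (1.16), YPQ1 (-0.68) and RTG1 (-0.62) without deletion library 1, and MKS1 (-0.34) without deletion library 2, had adjusted p below 0.05 in the direction first given, as did GCN2, GCN4, RTG2 and RTG3 without deletion library 1 (-0.85, 0.62, 0.38 and 0.38). Those fits hold 1 deletion library, so the wild-type pair alone gives the spread between libraries, and the p-values are no support for a change. The causes were not tested. Without single libraries the difference in LYS20 share ran from -3.91 to 5.81 percentage points.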
